A study of Mus musculus with 8 samples.

Results

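Glycolysis and hypoxia response genes were followed in blood stem and progenitor cells that shared a marrow with leukemia. The set holds 38 listed mouse genes: the enzymes and transporters that carry glucose to lactate, and the oxygen sensor with a group of its target genes. The genes were listed by name and role, and the list was drawn up with earlier results of these arrays known. A gene counted as found when at least 1 probe set, the cluster of short DNA probes that reads a transcript, carried that symbol and no other. By that rule 35 of the 38 were found, out of 18194 genes on the array. No probe set carried the symbol Gpi1 or Eno1 alone, and the probe sets of Bnip3l name a second locus too, so these 3 were not analysed here. Ero1l appears below under its current symbol, Ero1a. Where a gene had several probe sets, which was so for 22 of the members, the one with the highest mean over all arrays was used. Their other 43 probe sets had the same sign as the one used for 31 in leukemic against normal HSC, for 33 in leukemic against normal KSL, and for 33 and 36 in HSC against KSL of normal and of leukemic mice. Gapdh is read here by control probe sets, of which the one at the 3′ end was the brightest.

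The study used 8 Affymetrix mouse arrays, 2 in each of 4 groups. Irradiation or conditioning of the hosts, and the ages of the animals, are not given in the labels. Leukemic mice were CD45.1+ hosts given CD45.2+ marrow of BCR-ABL x SCL-tTA mice mixed in equal numbers with CD45.1+ marrow, and normal mice were made in the same way but lacking BCR-ABL. This oncogene, a constitutively active tyrosine kinase, causes chronic myeloid leukemia, and SCL-tTA makes it tetracycline-controlled under a promoter active in primitive blood cells, so that withdrawing the drug from the drinking water starts the disease. The cells on every array were CD45.1+, so they did not carry the transgene and had only been exposed to leukemic neighbours. They were either HSC, sorted as CD150+/CD48- KSL cells, or the whole KSL gate (Kit+, Sca-1+, lineage negative), of which HSC are a small part. For HSC the sort was made 4 weeks after the water was changed, and the time for KSL is not stated. CD45.1+ cells of the donor mixture and of the host cannot be told apart by this marker. Nothing in the labels says that the 2 arrays of a group came from different mice, so p-values measure the spread between these arrays. Within each normal group the arrays differed in the sex-linked gene Xist, at 5.79 and 11.94 in HSC and 3.67 and 11.71 in KSL. Those arrays therefore held different cell material, and their spread is not only technical. In the leukemic groups the spread may be technical.

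Glycolysis breaks glucose into pyruvate in the cytosol. Glucose enters through GLUT transporters, is trapped by hexokinases, is committed by phosphofructokinase, and the resulting pyruvate either enters mitochondria or is reduced to lactate by lactate dehydrogenase and exported by monocarboxylate transporters. Many of these genes are switched on by HIF-1, a transcription factor whose alpha subunit, encoded by Hif1a, is marked for destruction by oxygen-dependent prolyl hydroxylases (the Egln genes). Blood stem cells are known for a dormant state in poorly oxygenated marrow, where they lean on glycolysis and hold back pyruvate from mitochondria.

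Values are the deposited log2 intensities, so 1 unit is a doubling, and levels of different genes are not set against each other. Replicate arrays correlated across genes with r between 0.957 and 0.965 in HSC and between 0.988 and 0.994 in KSL, and the median standard deviation of members between replicates was 0.25 and 0.18 in the HSC groups against 0.11 and 0.08 in the KSL groups. Replicate 1 of both normal groups had a male pattern of sex-linked genes and the other 6 arrays a female one. The sort gates were borne out by their defining genes: Slamf1, which encodes CD150, lay between 8.23 and 9.36 on HSC arrays and between 5.27 and 7.06 on KSL arrays, and Cd48 lay between 6.19 and 8.12 in HSC and between 10.2 and 10.4 in KSL. The summed level of 8 measured genes of granulocyte-monocyte progenitors was 10.9 and 11.3 in HSC of normal mice, 12.2 and 12.8 in HSC of leukemic mice and between 15.0 and 15.5 in KSL, on the log2 scale. The summed level of 8 erythroid genes was 12.6 on array 1 of normal HSC and 11.6 on array 1 of normal KSL, and between 8.66 and 10.4 on the other 6 arrays. In a sorted bulk sample, fewer cells of a type and less RNA per cell cannot be told apart. Tests are limma fits over all 18194 genes, two-sided, and a gene passed at a Benjamini-Hochberg adjusted p under 0.05.

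In HSC, the genes whose leukemic arrays lay below the normal ones included the mitophagy receptor Bnip3, the oxygen sensor Egln3, the lactate transporters Slc16a1 and Slc16a3, the phosphofructokinase subunits Pfkl and Pfkm, and Ldhb. The arrays of the groups did not overlap for 15 members that were lower in leukemic mice, a pattern found in 16.7% of all genes, and for 4 that were higher, Hk2, Pkm, Ldha and Vegfa, a pattern found in 16.0% of all genes. The median difference of the 35 members was -0.14 log2 units against 0.00 for all genes. None of the 35 passed the limma test, and 0.0989% of all genes did. At an unadjusted limma p under 0.05 there were 9 members against 13.8% of all genes, of which 8 were lower (7.23% of all genes) and 1, Ldha, was higher (6.54%). All 8 measured genes of granulocyte-monocyte progenitors were higher in leukemic HSC without overlap, and the summed level of 11 genes of mature neutrophils and monocytes was 14.5 and 14.1 there against 13.6 and 11.2 in normal HSC. Of the 10 measured genes of the sort gates and of HSC, 8 had a lower mean in leukemic HSC and 2 a higher one (median -0.14). The 4 lower without overlap were Slamf1, Procr, Fgd5 and Hlf. Slamf1 read 8.90 and 9.36 in normal HSC and 8.47 and 8.23 in leukemic HSC. The part of all these marker shifts in the members' differences was not tested.

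In KSL cells 24 of the 35 members had a higher mean in leukemic mice, against 42.5% of all genes. At the probe sets used, Slc16a3, Slc16a1, Bnip3, Ldha, Pgk1 and Egln3 lay higher in leukemic than in normal mice. The glucose transporter Slc2a3 and the hexokinase Hk1 lay lower. For Pgk1, Egln3 and Hk1 the other probe sets overlapped between the KSL groups. They gave 0.01 and 0.01 for Pgk1, -0.11 for Egln3 and -0.12 for Hk1. The arrays did not overlap for 17 members that were higher (20.5% of all genes) and 7 that were lower (24.1%). The median difference of members was 0.18 against 0.00 for all genes. Again 0 of 35 passed in limma, against 0.0440% of all genes. At an unadjusted p under 0.05 there were 10 members against 7.95% of all genes, 8 of them higher (3.50%) and 2 lower (4.45%). Markers of other cells moved with the mice in this gate too. All 10 measured genes of the sort gates and of HSC had a lower mean in KSL of leukemic mice, 7 of them without overlap (median -0.65), and their summed level was 12.37 and 12.25 against 12.96 and 12.81. All 6 megakaryocyte genes had a lower mean, 4 without overlap (median -0.70), at a summed 10.01 and 10.36 against 10.97 and 11.72. Of the 8 granulocyte-monocyte progenitor genes 6 were higher without overlap and 1 was lower, at a summed 15.5 and 15.4 against 15.0 and 15.2. All 6 mast cell and basophil genes were higher without overlap, at a summed 11.5 and 11.5 against 10.5 and 10.6. The part of these shifts in the members' differences was not tested.

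The difference between these differences was fitted as an interaction (leukemic minus normal in HSC, less the same in KSL). Its median over members was -0.36 log2 units, against 0.00 for all genes, and 23 of the 35 values were below 0, which was so for 44.8% of all genes. The interaction passed for 0 members and for 0.00550% of all genes in limma. At an unadjusted p under 0.05 it picked 7 members (9.09% of all genes), Slc2a1, Pfkl, Aldoa, Slc16a1, Slc16a3, Egln3 and Bnip3, all 7 of them below 0 (4.28% of all genes) and 0 above it (4.81%). Arrays alone were then counted, at the probe set used for each gene. By this count 9 members were lower in leukemic HSC and higher in leukemic KSL without overlap in either (2.83% of all genes). The opposite was shown by 0 members, a pattern of 3.26%. The 9 were Slc2a1, Aldoa, Pgam1, Eno2, Slc16a1, Slc16a3, Egln3, Bnip3 and P4ha2. A second probe set of Slc16a1 had the same pattern. The other probe sets of Slc2a1 and Aldoa overlapped in HSC, and that of Egln3 overlapped in KSL. Pgam1, Eno2, Slc16a3, Bnip3 and P4ha2 have only 1 probe set each. At the probe sets used, Pkm and Ldha were higher in both gates (4.28% of all genes). Pfkm, Eno3 and Ldhb were there lower in both (5.90%), though the other probe sets of Ldhb overlapped in KSL.

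**Figure D1:**
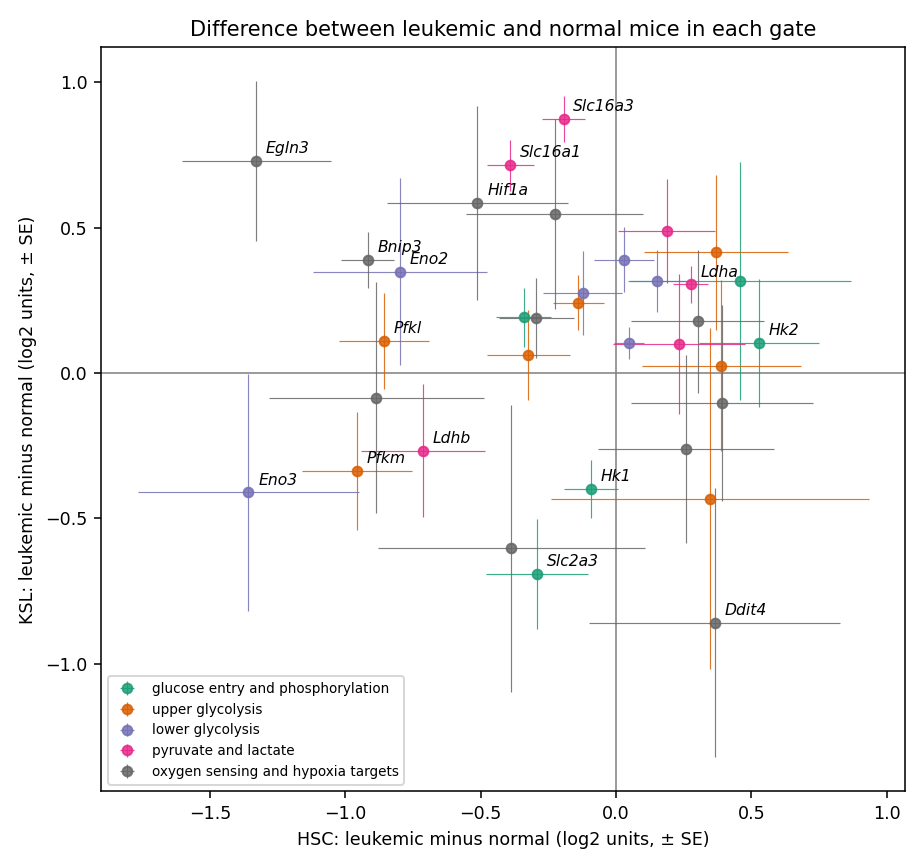
Each point is 1 of the 35 members, with its difference between leukemic and normal mice in HSC on the horizontal axis and in KSL on the vertical axis, in log2 units, and bars for the standard error of the limma fit (2 arrays per group). Bnip3, Egln3, Slc16a1 and Slc16a3 sit in the upper left, lower in HSC and higher in KSL of leukemic mice, Ldha sits above 0 on both axes, and 0 members passed in either comparison.

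Set against KSL cells of leukemic mice, HSC of leukemic mice differed in 7 members that passed (5.85% of all genes). The labels do not say whether both cell types came from the same animals. Slc2a3 and Hk1 were higher in HSC (3.12% of all genes were called higher). Pgam1, Slc16a1, Slc16a3, Egln3 and Bnip3 were lower (2.74%). In normal mice 1 member passed, Pgam1 (1.80% of all genes). These comparisons use the same arrays as the leukemic against normal ones, so they are not separate evidence on them.

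Promoters are shown for the 5 members that passed as lower in HSC than in KSL of leukemic mice and for Ldha, the member that was higher in both gates at an unadjusted p under 0.05; the choice was made after their values were seen. Each is the 250 bases before the gene's start site in RefSeq's annotation of GRCm38.p6, written 5′ to 3′ on the gene's own strand, with capitals for the words ACGTG and GCGTG, the core of the site that HIF binds, or their reverse complements CACGT and CACGC. Bnip3 is on the minus strand at chr7:138909507-138909756, Egln3 on the minus strand at chr12:54203875-54204124, Ldha on the plus strand at chr7:46845554-46845803, Pgam1 on the plus strand at chr19:41911621-41911870, Slc16a1 on the plus strand at chr3:104638414-104638663 and Slc16a3 on the plus strand at chr11:120948817-120949066.
Bnip3: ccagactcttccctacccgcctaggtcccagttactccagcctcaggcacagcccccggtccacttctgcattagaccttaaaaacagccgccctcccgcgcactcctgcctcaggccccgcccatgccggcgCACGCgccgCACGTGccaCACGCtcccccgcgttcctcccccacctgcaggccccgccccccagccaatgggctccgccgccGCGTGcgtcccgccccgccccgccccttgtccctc
Egln3: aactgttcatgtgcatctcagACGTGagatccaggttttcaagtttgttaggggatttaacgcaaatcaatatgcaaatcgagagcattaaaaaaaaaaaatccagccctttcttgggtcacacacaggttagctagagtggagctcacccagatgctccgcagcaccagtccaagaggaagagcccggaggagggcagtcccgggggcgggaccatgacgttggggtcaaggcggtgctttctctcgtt
Ldha: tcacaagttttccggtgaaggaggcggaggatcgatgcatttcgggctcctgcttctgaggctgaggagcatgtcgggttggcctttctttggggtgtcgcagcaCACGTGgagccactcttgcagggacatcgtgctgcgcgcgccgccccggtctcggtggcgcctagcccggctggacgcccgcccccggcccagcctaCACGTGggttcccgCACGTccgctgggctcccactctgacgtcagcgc
Pgam1: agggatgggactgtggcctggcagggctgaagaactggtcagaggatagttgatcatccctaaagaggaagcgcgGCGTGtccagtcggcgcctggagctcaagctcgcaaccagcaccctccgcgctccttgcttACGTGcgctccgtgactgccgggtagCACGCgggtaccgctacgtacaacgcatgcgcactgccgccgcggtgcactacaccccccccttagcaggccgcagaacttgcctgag
Slc16a1: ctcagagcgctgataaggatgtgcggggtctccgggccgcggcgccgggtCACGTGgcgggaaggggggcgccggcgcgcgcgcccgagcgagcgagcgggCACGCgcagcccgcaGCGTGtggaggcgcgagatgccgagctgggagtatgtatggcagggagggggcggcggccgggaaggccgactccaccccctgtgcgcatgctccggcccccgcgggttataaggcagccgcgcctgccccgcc
Slc16a3: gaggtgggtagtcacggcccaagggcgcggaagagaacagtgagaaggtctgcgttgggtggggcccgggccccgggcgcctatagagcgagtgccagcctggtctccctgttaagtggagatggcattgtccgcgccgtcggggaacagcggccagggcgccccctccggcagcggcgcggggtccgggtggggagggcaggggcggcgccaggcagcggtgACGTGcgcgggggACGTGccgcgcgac
In these stretches the words occur 5 times for Bnip3, 1 time for Egln3, 5 times for Ldha, 3 times for Pgam1, 4 times for Slc16a1 and 2 times for Slc16a3, where the palindrome CACGTG, which holds ACGTG on both strands, gives 2 matches. A window was found for 33 of the 35 members, Slc2a3 and Ndrg1 being the exceptions, and some genes have more than 1 start site, which gives 45 windows of 300 bases (250 before and 50 after the start). ACGTG was in 64.4% of these windows and in 19.6% of all 32851 windows of that length, GCGTG in 57.8% against 32.4%, and either word in 82.2% against 43.8%. Member windows were also richer in G and C, with a median of 63.3% against 52.7%, and held a median of 20 CG pairs against 7. Both words hold a CG pair, and the part of base composition in their frequency was not tested. A match is a run of letters and not a measured binding site.

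Glucose enters cells through Slc2a1 (GLUT1) and Slc2a3 (GLUT3). Slc2a1 read 10.01 and 9.79 on the HSC arrays of normal mice, 9.62 and 9.50 on those of leukemic mice, 9.53 and 9.66 in KSL of normal mice and 9.84 and 9.74 in KSL of leukemic mice. The groups did not overlap in either gate, with leukemic arrays lower in HSC and higher in KSL. The HSC difference was -0.34 ± 0.10 (SE, n = 2 arrays per group here and below; limma adjusted p = 0.273), the KSL difference 0.19 ± 0.10 (adjusted p = 0.817), and the interaction -0.53 ± 0.14 (adjusted p = 0.407). The other 2 probe sets of this gene gave -0.19 and 0.43 in HSC, so they disagreed on the direction there.

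Slc2a3, the high-affinity transporter, read 10.90 and 11.33 in normal HSC, 10.64 and 11.00 in leukemic HSC, 9.83 and 9.75 in normal KSL and 9.15 and 9.06 in leukemic KSL. Every HSC array lay above every KSL array. In leukemic mice HSC exceeded KSL by 1.72 ± 0.19 log2 units, a 3.29-fold difference that passed (limma adjusted p = 0.0214). In normal mice the excess was 1.32 ± 0.19 and did not pass (adjusted p = 0.0600). Within KSL both leukemic arrays were below the normal ones, with a difference of -0.69 ± 0.19 (adjusted p = 0.494), and all 4 probe sets of the gene gave a negative KSL difference, between -0.99 and -0.68.

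Hexokinases phosphorylate glucose and so keep it in the cell. Hk1, the widely expressed form, read 9.76 and 9.64 in normal HSC, 9.49 and 9.73 in leukemic HSC, 9.27 and 9.27 in normal KSL and 8.93 and 8.82 in leukemic KSL. Here too all HSC arrays were above all KSL arrays, and the KSL groups were apart. HSC exceeded KSL by 0.74 ± 0.10 in leukemic mice, which passed (limma adjusted p = 0.0308), and by 0.43 ± 0.10 in normal mice (adjusted p = 0.138). A second probe set of Hk1 gave 0.36 in HSC of leukemic against normal mice, higher without overlap, where the first overlapped. In KSL that second probe set overlapped between the groups, with a difference of -0.12.

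Hk2, the hypoxia-inducible and mitochondria-bound form, read 7.98 and 8.52 in normal HSC and 8.73 and 8.82 in leukemic HSC. The leukemic HSC arrays were above both normal ones by a mean of 0.53 ± 0.22 (limma adjusted p = 0.403), and the 4 KSL arrays, between 8.11 and 8.47, overlapped between groups. Hk3, a form of myeloid cells, lay between 7.81 and 8.93 in HSC and between 9.93 and 10.67 in KSL. HSC minus KSL was -2.00 ± 0.41 in normal mice (adjusted p = 0.111) and -1.86 ± 0.41 in leukemic mice (adjusted p = 0.0794), with no overlap and no pass in either. A second probe set of Hk3 was lower in leukemic than in normal HSC without overlap, by a difference of -1.31, where the first overlapped at 0.46. The granulocyte-monocyte progenitor genes are higher in KSL than in HSC in the same way, and their part in the Hk3 difference was not tested.

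Phosphofructokinase is the committing step, and the array reads its liver, muscle and platelet subunits. Pfkl, the liver-type subunit, read 10.13 and 9.95 in normal HSC and 9.35 and 9.01 in leukemic HSC. Pfkm, the muscle-type subunit, read 8.62 and 8.99 in normal HSC and 7.99 and 7.71 in leukemic HSC. For both, both leukemic arrays were below both normal ones, with differences of -0.86 ± 0.17 for Pfkl (limma adjusted p = 0.174) and -0.96 ± 0.20 for Pfkm (adjusted p = 0.193). Pfkp, the platelet-type subunit, read 8.94 and 8.23 in normal HSC and 9.09 and 8.83 in leukemic HSC, so its groups overlapped. The other 2 probe sets of Pfkp were higher in leukemic HSC without overlap, by 0.48 and 1.17. All 3 probe sets of Pfkl were lower in leukemic HSC, between -0.86 and -0.72.

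In KSL, Pfkl overlapped between groups, at 9.50 and 9.31 against 9.65 and 9.38. Pfkm was lower in leukemic KSL, 8.06 and 7.72 against 8.11 and 8.35, with a difference of -0.34 ± 0.20 (limma adjusted p = 0.884). Pfkp was higher, 9.51 and 9.47 against 8.93 and 9.22, by 0.42 ± 0.27 (adjusted p = 0.913). The interaction for Pfkl was -0.97 ± 0.24 (adjusted p = 0.376). Pfkfb3, which makes the activator of phosphofructokinase, lay between 7.38 and 8.35 over all 8 arrays at the probe set used, and its groups overlapped there in every comparison. Its second probe set did not overlap in any of the 4 comparisons of groups: it was higher in leukemic mice by 0.44 in HSC and 0.52 in KSL, and HSC minus KSL was -0.53 in normal and -0.62 in leukemic mice.

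Aldolase splits the sugar into a pair of trioses, which Tpi1 interconverts. Aldoa, the main form, lay at 11.69 and 11.88 in normal HSC, 11.66 and 11.64 in leukemic HSC, 11.72 and 11.73 in normal KSL and 12.06 and 11.87 in leukemic KSL. It was among the members that were lower in HSC and higher in KSL of leukemic mice, with differences of -0.14 ± 0.09 and 0.24 ± 0.09 (limma adjusted p = 0.601 and 0.643). The nearest HSC arrays of the groups, 11.69 and 11.66, were closer to each other than the normal replicates were. The other probe sets of Aldoa all overlapped between the HSC groups, with differences between -0.23 and -0.06. In KSL they were higher in leukemic mice without overlap (0.30, 0.30 and 0.40), except for the dimmest, which overlapped at -0.16. Aldoc, the brain form, varied widely, from 7.46 to 8.89 in HSC and from 5.72 to 6.71 in KSL. HSC was above KSL in both kinds of mice at the probe set used, by 1.59 ± 0.59 in normal and 2.36 ± 0.59 in leukemic ones (adjusted p = 0.297 and 0.102). A second, dimmer probe set of Aldoc gave 0.99 in normal mice without overlap. In leukemic mice it overlapped, at 3.64 and 6.33 in HSC against 3.60 and 3.74 in KSL. Tpi1 lay between 10.17 and 10.76 on all 8 arrays, and leukemic minus normal HSC was -0.32 ± 0.15 (adjusted p = 0.455). All its probe sets were lower in leukemic HSC without overlap, between -0.53 and -0.32. In KSL the brighter ones overlapped, at 0.06 and 0.00, and the dimmest was higher in leukemic mice without overlap, by 0.30. HSC minus KSL of leukemic mice was -0.49 ± 0.15 (adjusted p = 0.160) at the probe set used and -1.09 at the dimmest, and passed with the mean of all probe sets.

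Gapdh and Pgk1 carry out the step that captures energy from the trioses. Gapdh was nearly level at its 3′ probe set, between 13.08 and 13.25, but less so at the others. HSC minus KSL of leukemic mice was -0.09 at the 3′, -0.58 at the middle and -0.46 at the 5′ probe set, lower without overlap at each. That difference passed with the mean of all probe sets and with the second brightest. The 5′ probe set of Gapdh read 12.32 and 12.28 in normal HSC and 12.04 and 12.04 in leukemic HSC, and between 12.24 and 12.52 in KSL. The gap between 3′ and 5′ ends was therefore wider in leukemic HSC, 1.19 and 1.03, than on the other 6 arrays, where it lay between 0.73 and 0.89. Such a gap is a usual gauge of RNA integrity and of amplification. The matching gap of Actb was -0.42 and -0.50 in leukemic HSC and between -0.53 and -0.37 elsewhere, and that of Tfrc was -0.36 and -0.75 in leukemic HSC and between -2.04 and -1.28 elsewhere. The part of this shift in the lower HSC values was not tested.

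Pgk1 read 10.92 and 10.95 in normal HSC, 11.10 and 10.82 in leukemic HSC, 11.19 and 11.03 in normal KSL and 11.46 and 11.54 in leukemic KSL. The HSC groups overlapped, and the KSL groups were apart by 0.39 ± 0.11 (limma adjusted p = 0.510). Its other 2 probe sets each gave 0.01 in KSL, so this difference belongs to the probe set used. In leukemic mice HSC minus KSL was -0.54 ± 0.11, which did not pass (adjusted p = 0.0708).

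Pgam1, a phosphoglycerate mutase, separated HSC from KSL more than it separated mice. It read 10.37 and 10.26 in normal HSC, 10.21 and 10.17 in leukemic HSC, 11.53 and 11.49 in normal KSL and 11.57 and 11.99 in leukemic KSL. Every KSL array was above every HSC array by more than a log2 unit. The HSC level was lower by a difference of -1.19 ± 0.15 in normal mice (2.29-fold, limma adjusted p = 0.0428) and of -1.59 ± 0.15 in leukemic mice (3.02-fold, adjusted p = 0.0146). The pass in normal mice held in only 5 of 19 alternative fits. These were a common median, quantile normalization, the mean of all probe sets, and leaving out genes at the floor or the lowest 40% of genes. Other members make up some counts of other fits, as Slc2a3 does with array weights.

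Enolases make phosphoenolpyruvate, and the forms measured were the neuronal Eno2 and the muscle Eno3. Eno2 read 5.93 and 5.05 in normal HSC, 4.66 and 4.73 in leukemic HSC, 3.50 and 3.43 in normal KSL and 3.61 and 4.02 in leukemic KSL. The leukemic arrays were below the normal ones in HSC and above them in KSL, while the KSL values lay close to the floor of 3.32 that the deposited table has. HSC exceeded KSL by 2.03 ± 0.32 in normal mice (limma adjusted p = 0.0688) and 0.88 ± 0.32 in leukemic mice (adjusted p = 0.202). Eno3 read 6.78 and 7.87 in normal HSC and 6.15 and 5.79 in leukemic HSC, a difference of -1.36 ± 0.41 (adjusted p = 0.276), and 6.72 and 7.21 in normal KSL against 6.57 and 6.54 in leukemic KSL.

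Pkm, pyruvate kinase, read 11.13 and 11.34 in normal HSC, 11.40 and 11.37 in leukemic HSC, 11.21 and 11.44 in normal KSL and 11.66 and 11.62 in leukemic KSL. It was 1 of the 2 members higher in leukemic mice in both gates without overlap, by 0.15 ± 0.11 and 0.32 ± 0.11 (limma adjusted p = 0.619 and 0.581).

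**Figure D2:**
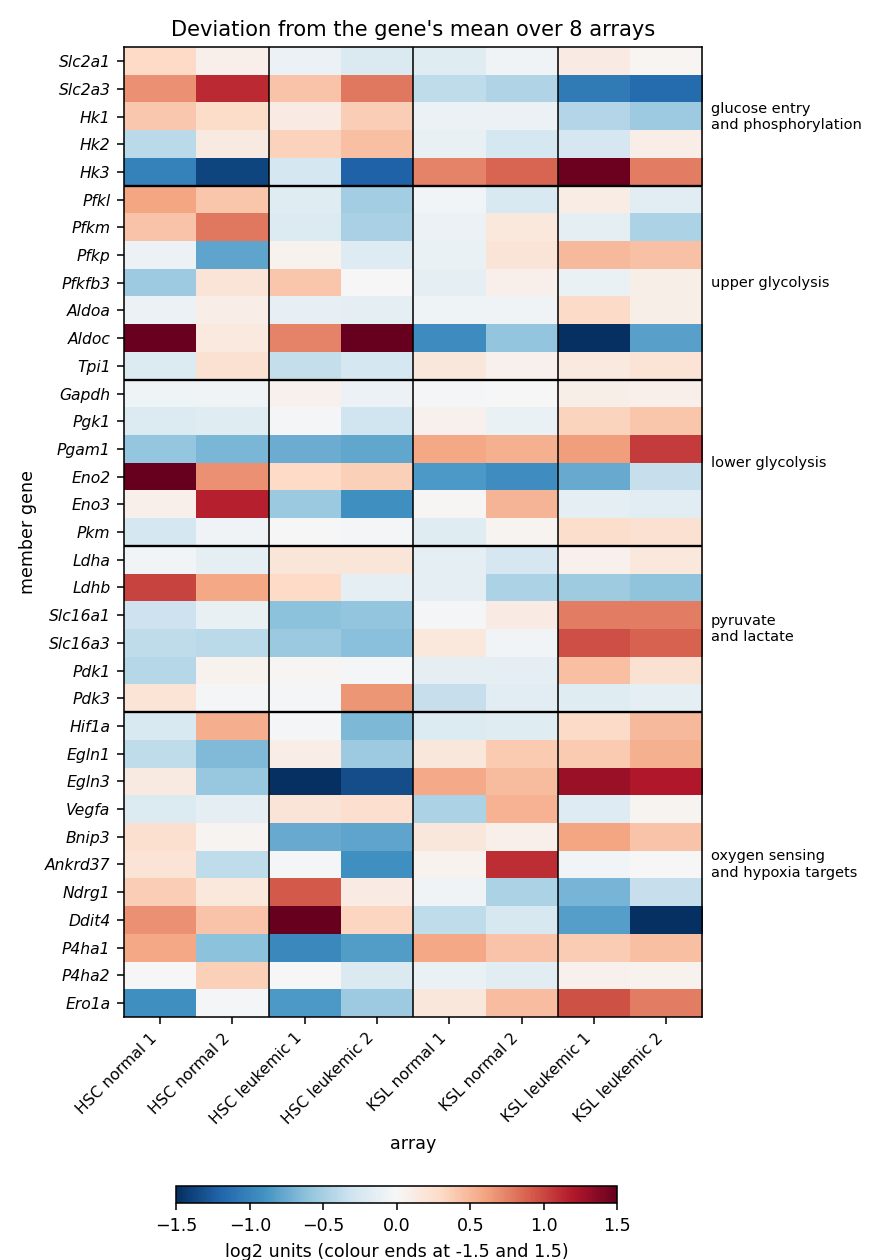
The 35 members are rows, ordered by role, and the 8 arrays are columns; colour is the log2 deviation from that gene's mean over 8 arrays, ending at -1.5 and 1.5. Egln3, Slc16a1, Slc16a3 and Bnip3 are lowest on the HSC arrays of leukemic mice and highest on the KSL arrays of leukemic mice, and Slc2a3 is lowest in KSL of leukemic mice.

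The subunits of lactate dehydrogenase had values of opposite sign, and neither passed. Ldha, the subunit that favours lactate formation, read 11.79 and 11.69 in normal HSC, 12.01 and 12.01 in leukemic HSC, 11.70 and 11.58 in normal KSL and 11.89 and 11.99 in leukemic KSL. Leukemic arrays were above normal ones in both gates, and the size was nearly the same: 0.28 ± 0.06 in HSC (1.21-fold, limma adjusted p = 0.209) and 0.31 ± 0.06 in KSL (1.24-fold, adjusted p = 0.341). The interaction was -0.03 ± 0.09, with a 95% interval from -0.27 to 0.21.

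Ldhb, the subunit that favours pyruvate formation, read 10.12 and 9.69 in normal HSC, 9.41 and 8.98 in leukemic HSC, 8.97 and 8.64 in normal KSL and 8.57 and 8.50 in leukemic KSL. Leukemic arrays were below normal ones in both gates at the probe set used. The HSC difference was -0.71 ± 0.23 (limma adjusted p = 0.297), and all 4 probe sets gave a negative value there. The KSL difference was -0.27 ± 0.23 (adjusted p = 0.992). In KSL the other 3 probe sets overlapped between the groups, at -0.05, 0.13 and -0.14. HSC exceeded KSL by 1.10 ± 0.23 in normal mice (adjusted p = 0.115) and 0.66 ± 0.23 in leukemic mice (adjusted p = 0.189).

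The lactate transporters, with Bnip3, had the smallest interaction p-values of the members. Slc16a1 (MCT1), which moves lactate either way, read 9.07 and 9.28 in normal HSC, 8.77 and 8.80 in leukemic HSC, 9.37 and 9.51 in normal KSL and 10.15 and 10.15 in leukemic KSL. Leukemic arrays were the lowest of all in HSC and the highest of all in KSL. The HSC difference was -0.39 ± 0.09 (limma adjusted p = 0.202), the KSL difference 0.72 ± 0.09 (1.64-fold, adjusted p = 0.215) and the interaction -1.11 ± 0.12 (unadjusted p = 0.000406, adjusted p = 0.176). A second, dimmer probe set gave -0.13 in HSC and 1.45 in KSL.

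Slc16a3 (MCT4), the hypoxia-inducible exporter of lactate, read 5.99 and 5.96 in normal HSC, 5.82 and 5.74 in leukemic HSC, 6.53 and 6.33 in normal KSL and 7.34 and 7.26 in leukemic KSL. The order of the 4 groups was that of Slc16a1. The HSC difference was -0.19 ± 0.08 (limma adjusted p = 0.389), the KSL difference 0.87 ± 0.08 (1.83-fold, adjusted p = 0.112) and the interaction -1.07 ± 0.11 (unadjusted p = 0.000298, adjusted p = 0.166). With array weights, which count the tighter KSL arrays for more, both transporters passed as higher in leukemic KSL, where 0.687% of all genes then passed in place of 0.0440%.

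Between the gates of leukemic mice, HSC held less of both transporters. The difference from KSL was -1.37 ± 0.09 for Slc16a1 (2.58-fold, limma adjusted p = 0.00911) and -1.52 ± 0.08 for Slc16a3 (2.87-fold, adjusted p = 0.00759). In normal mice it was -0.26 ± 0.09 and -0.45 ± 0.08, and neither passed (adjusted p = 0.254 and 0.0804).

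Pyruvate dehydrogenase kinases shut the door of mitochondria to pyruvate. Pdk1, a HIF target, read 8.81 and 9.30 in normal HSC, 9.26 and 9.23 in leukemic HSC, 9.10 and 9.09 in normal KSL and 9.70 and 9.47 in leukemic KSL. Only the KSL groups were apart, by 0.49 ± 0.18 (limma adjusted p = 0.613), and the other 3 probe sets of Pdk1 gave between -0.23 and 0.68 there. Pdk3 read 8.65 and 8.42 in normal HSC, 8.43 and 9.11 in leukemic HSC and between 8.10 and 8.31 in KSL, with overlap between mice in both gates.

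**Figure D3:**
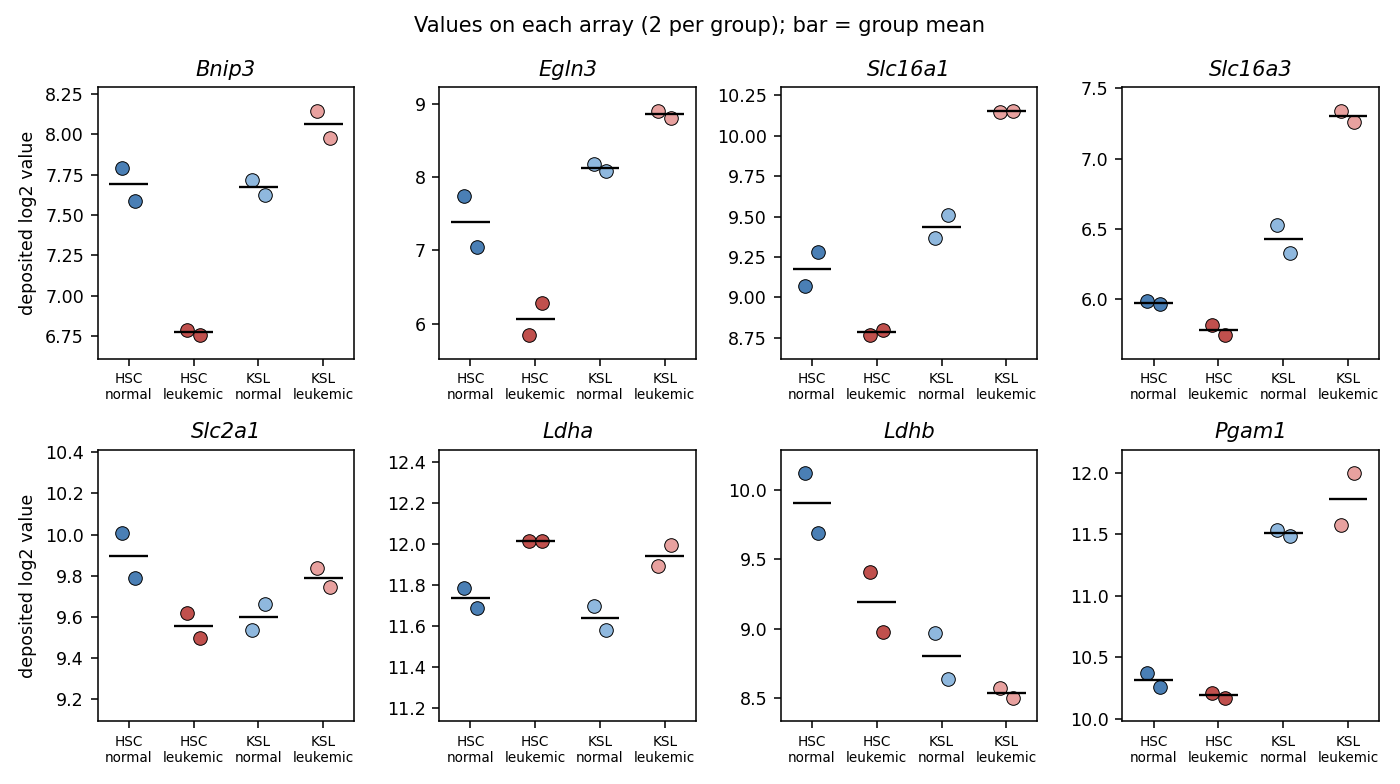
Log2 values of 8 members on each array, with 2 points per group and a bar at the group mean; each panel has its own vertical scale, which does not start at 0. At the probe sets used, Bnip3, Egln3, Slc16a1, Slc16a3 and Slc2a1 are lower in HSC and higher in KSL of leukemic mice. At these probe sets Ldha is higher in both gates, Ldhb is lower in both, and Pgam1 differs mainly between HSC and KSL.

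Of the oxygen-sensing genes, Hif1a, which encodes the regulated subunit of HIF-1, read 8.32 and 9.10 in normal HSC, 8.51 and 7.88 in leukemic HSC, 8.34 and 8.36 in normal KSL and 8.83 and 9.04 in leukemic KSL. The HSC groups overlapped, the KSL groups did not, and the KSL difference of 0.58 ± 0.34 did not pass (limma adjusted p = 0.860). Its 4 probe sets gave between 0.34 and 0.58 in KSL and between -0.72 and 0.13 in HSC. HSC minus KSL in normal mice was 0.36 ± 0.34 with overlap at the probe set used (adjusted p = 0.710). The others were lower in HSC there without overlap, at -0.87, -0.26 and -1.63. In leukemic mice it was -0.74 ± 0.34 at the probe set used (adjusted p = 0.285), and all 4 were lower in HSC without overlap, down to -1.89. HIF-1 is governed mainly through the stability of its protein, which arrays do not read. Egln1, the main prolyl hydroxylase, lay between 7.82 and 8.59 in HSC and between 8.66 and 9.02 in KSL. Its mice overlapped in both gates, and HSC minus KSL was -0.81 ± 0.25 in normal mice and -0.68 ± 0.25 in leukemic mice (adjusted p = 0.221 and 0.199). A second probe set of Egln1 disagreed. It read 7.80 and 7.45 in normal HSC, 8.87 and 8.63 in leukemic HSC and between 8.10 and 8.32 in KSL. Leukemic HSC were there higher than normal HSC by 1.12 without overlap, and HSC minus KSL was -0.56 in normal mice and 0.49 in leukemic mice, so the direction for Egln1 in leukemic mice depends on the probe set.

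Egln3, a prolyl hydroxylase that HIF itself induces, had the largest interaction among members. It read 7.74 and 7.04 in normal HSC, 5.84 and 6.28 in leukemic HSC, 8.17 and 8.08 in normal KSL and 8.90 and 8.80 in leukemic KSL. Leukemic HSC arrays were the lowest and leukemic KSL arrays the highest of the 8. The HSC difference was -1.33 ± 0.27 (2.51-fold, limma adjusted p = 0.184), the KSL difference 0.73 ± 0.27 (adjusted p = 0.626) and the interaction -2.06 ± 0.39 (adjusted p = 0.311).

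A second probe set of Egln3 gave the HSC side of this pattern and not the KSL side. It read 7.74 and 7.68 in normal HSC, 5.90 and 5.91 in leukemic HSC, 7.89 and 8.03 in normal KSL and 7.78 and 7.91 in leukemic KSL. When the second brightest probe set stood for each gene, the HSC difference was -1.80 and passed, while the KSL groups overlapped. HSC against KSL of leukemic mice was -2.79 ± 0.27 at the first probe set (6.93-fold, adjusted p = 0.0168) and -1.94 at the second.

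Bnip3, a HIF target that marks mitochondria for removal, had the smallest p of all members in HSC. It read 7.79 and 7.59 in normal HSC, 6.79 and 6.76 in leukemic HSC, 7.72 and 7.63 in normal KSL and 8.15 and 7.98 in leukemic KSL. Normal HSC and normal KSL held nearly the same level, with a difference of 0.02 ± 0.10 and a 95% interval from -0.23 to 0.27. Leukemic HSC lay below and leukemic KSL above that level. The HSC difference was -0.92 ± 0.10 (1.89-fold, unadjusted p = 0.000313, limma adjusted p = 0.0932), the KSL difference 0.39 ± 0.10 (adjusted p = 0.427) and the interaction -1.31 ± 0.14 (adjusted p = 0.166). HSC against KSL in leukemic mice was -1.29 ± 0.10 (2.44-fold, adjusted p = 0.0113). Over 19 alternative fits the HSC difference stayed between -1.02 and -0.81, its adjusted p ranged from 0.0770 to 0.525, and it passed in 0 of them.

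The remaining hypoxia targets did not follow Bnip3 and Egln3 as a group, though P4ha2 and a second probe set of P4ha1 did. Vegfa, the growth factor of blood vessels, read 7.45 and 7.52 in normal HSC and 7.85 and 7.91 in leukemic HSC, while its KSL arrays, between 7.19 and 8.18, overlapped. Its second probe set gave 0.94 in HSC and 0.38 in KSL, higher in leukemic mice without overlap in both gates. Ddit4, an inhibitor of mTORC1, read 9.38 and 9.12 in normal HSC, 10.22 and 9.01 in leukemic HSC, 8.31 and 8.45 in normal KSL and 7.86 and 7.18 in leukemic KSL. Its HSC groups overlapped, leukemic minus normal KSL was -0.86 ± 0.46 (limma adjusted p = 0.827), and HSC exceeded KSL in leukemic mice by 2.09 ± 0.46 (adjusted p = 0.0808).

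Ndrg1 lay between 9.93 and 10.73 in HSC and between 9.11 and 9.76 in KSL. At the probe set used, its values overlapped between mice in both gates. Of its other 4 probe sets, 3 were higher in leukemic HSC without overlap (1.04, 0.38 and 0.96) and 2 were lower in leukemic KSL without overlap (both -0.54). At the probe set used, every HSC array exceeded every KSL array, by 1.04 ± 0.32 in leukemic mice (limma adjusted p = 0.153), and its 5 probe sets gave between 1.04 and 2.72 there. Ankrd37, a small ankyrin-repeat protein, lay between 5.49 and 7.51 over the 8 arrays, and its leukemic KSL arrays, 6.37 and 6.40, were below the normal ones, 6.46 and 7.51, by a difference that rests on 1 high array.

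The last 3 members fold and modify secreted proteins. P4ha1 and P4ha2 encode the alpha subunits that hydroxylate proline in collagen. P4ha1 read 8.32 and 7.12 in normal HSC, 6.77 and 6.90 in leukemic HSC and between 8.12 and 8.32 in KSL. Its leukemic HSC arrays were the lowest of the 8, with a difference of -0.89 ± 0.40 (limma adjusted p = 0.431), but the normal HSC arrays themselves differed by more than that. A second, dimmer probe set of P4ha1 was lower in leukemic HSC (-0.84) and higher in leukemic KSL (0.40), without overlap in either gate. HSC minus KSL of normal mice was 0.53 there, against -0.53 at the probe set used. P4ha2 was dim throughout, between 4.29 and 4.87. Its leukemic arrays were lower in HSC and higher in KSL without overlap, with differences of -0.29 ± 0.14 and 0.19 ± 0.14 (adjusted p = 0.449 and 0.939). Ero1a, which drives disulfide bond formation, read 7.64 and 8.52 in normal HSC, 7.70 and 8.01 in leukemic HSC, 8.73 and 9.01 in normal KSL and 9.51 and 9.33 in leukemic KSL. All KSL arrays were above all HSC arrays, and the leukemic KSL arrays were above the normal ones by 0.55 ± 0.33 (adjusted p = 0.879). HSC against KSL of leukemic mice was -1.56 ± 0.33 and did not pass (adjusted p = 0.0722).

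**Figure D4:**
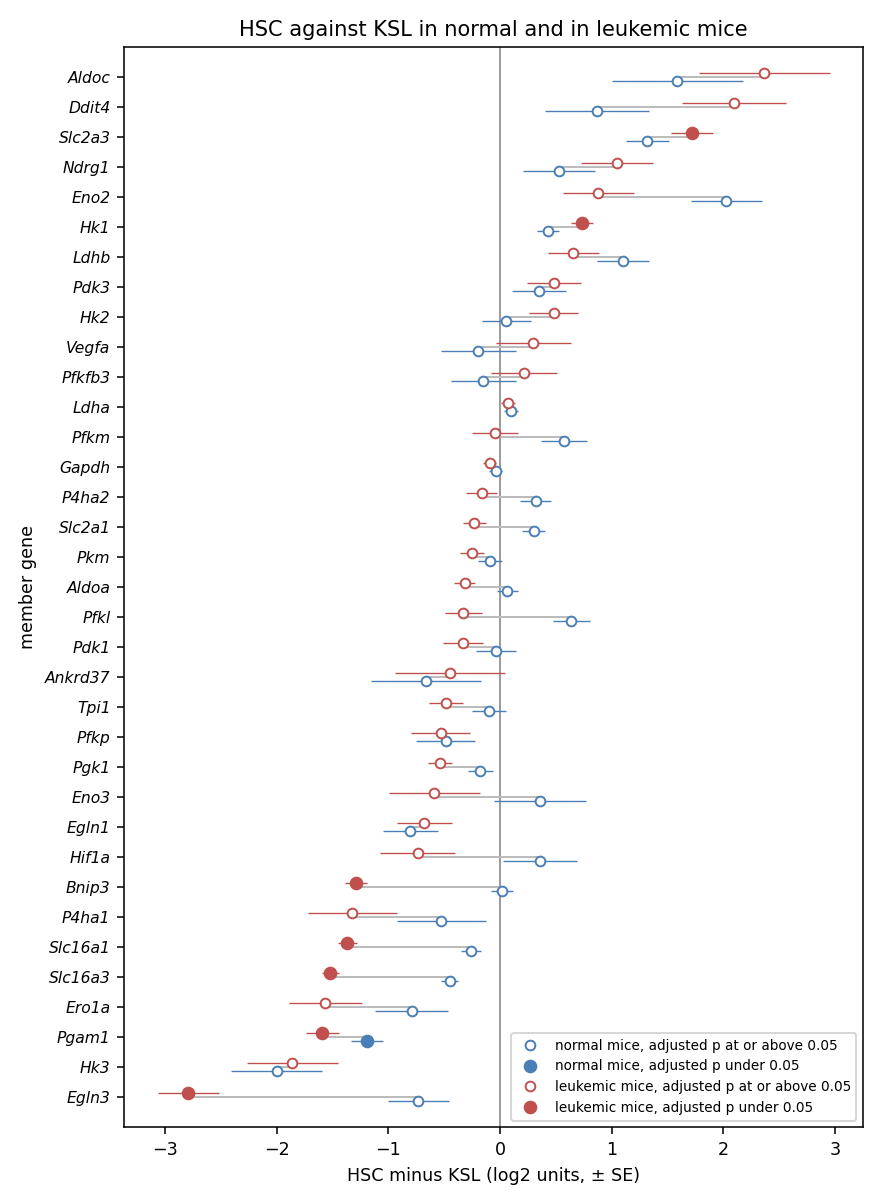
HSC minus KSL in log2 units for each of the 35 members, in normal mice (blue) and in leukemic mice (red), with bars for the standard error of the limma fit and filled points where the adjusted p was under 0.05. In leukemic mice 7 members passed, Slc2a3 and Hk1 to the right of 0 and Pgam1, Slc16a1, Slc16a3, Egln3 and Bnip3 to the left, and in normal mice Pgam1 passed.

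Across roles, HSC against KSL did not run 1 way. In leukemic mice the median difference of the 5 members for glucose entry and phosphorylation was 0.48, that of the 7 members of upper glycolysis -0.32, that of the 6 of lower glycolysis -0.40, that of the 6 for pyruvate and lactate -0.13 and that of the 11 oxygen-sensing genes and hypoxia targets -0.68. Over all 35 members it was -0.32, against 0.01 for all genes. In normal mice it was 0.02, and it changed sign under 4 of 19 alternatives. HSC arrays lay above KSL arrays without overlap for 11 members in leukemic mice (28.2% of all genes) and 12 in normal mice (24.2%), and below them for 21 in leukemic mice (23.2%) and 9 in normal mice (19.3%). At an unadjusted p under 0.05 there were 19 members in leukemic mice (23.0% of all genes), 7 higher (12.7%) and 12 lower (10.3%), and 14 in normal mice (16.2%), 8 higher (8.86%) and 6 lower (7.36%). The granulocyte-monocyte progenitor genes were lower in HSC than in KSL in both kinds of mice, as were the mast cell and basophil genes, while all 6 megakaryocyte genes had a higher mean in HSC, and their part in these differences was not tested. Leaving out either KSL array of leukemic mice left 0 of the 7 calls (0.00% and 0.0495% of all genes then passed), and leaving out either KSL array of normal mice left 4, Pgam1, Slc16a1, Slc16a3 and Bnip3 (2.21% of all genes). Without both arrays of male pattern, Slc16a1 alone passed (0.517% of all genes).

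The other genes of these pathways, taken from 6 lists, gave 0 passes between leukemic and normal mice in either gate and in the interaction. The lists held 12 measured genes of other glycolytic isoforms, 8 of the pentose phosphate pathway, 11 that bring pyruvate into mitochondria, 14 of glycogen and gluconeogenesis, 13 of the HIF core machinery and 19 further hypoxia targets. In HSC the smallest p of these lists was that of Ak4, a mitochondrial adenylate kinase induced by hypoxia. Ak4 read 8.46 and 9.24 in normal HSC, 6.42 and 6.79 in leukemic HSC and between 7.84 and 8.56 in KSL. Leukemic HSC arrays stood apart from the other 6, by a difference of -2.25 ± 0.38 from normal HSC (limma adjusted p = 0.142). The next was Siah2, a ubiquitin ligase that acts on the prolyl hydroxylases, at 6.93 and 7.19 in normal HSC and 7.72 and 8.05 in leukemic HSC, a difference of 0.82 ± 0.17 (adjusted p = 0.184). The smallest p of the other lists in HSC belonged to Pck2 (-0.37), Pfkfb4 (-1.13), Taldo1 (-0.31) and Pdk2 (-0.64), with adjusted p between 0.200 and 0.371.

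In KSL the smallest p of the lists belonged to Hmox1, heme oxygenase, which read 7.24 and 7.40 in normal mice and 5.30 and 5.70 in leukemic mice, a difference of -1.82 ± 0.25 (limma adjusted p = 0.215). Tigar, a phosphatase that diverts sugar from glycolysis to the pentose phosphate pathway, read 6.36 and 6.40 in normal KSL and 7.41 and 7.08 in leukemic KSL, a difference of 0.87 ± 0.14 (adjusted p = 0.225). Its HSC arrays lay between 4.87 and 5.26. The other lists were led by Pdk2 (-0.98), Adpgk (0.60), Gbe1 (0.62) and Siah2 (-0.42), with adjusted p between 0.431 and 0.664. Among interactions, Tigar had -1.08, Siah2 1.24, Ak4 -2.41, Dld -1.32, Adpgk -0.58 and Pck1 0.39, with adjusted p between 0.290 and 0.594.

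Between HSC and KSL some of these genes passed. In leukemic mice HSC held less Tigar (-2.29 ± 0.14, limma adjusted p = 0.00839), Taldo1 (-1.06 ± 0.12, adjusted p = 0.0226) and Pgd (-0.95 ± 0.16, adjusted p = 0.0433), which were 3 of the 8 pentose phosphate genes, and less Slc2a6 (-1.26) and Anxa2 (-1.47). It held more Meis1, a stem cell transcription factor that induces Hif1a (2.09 ± 0.16, adjusted p = 0.0114), more Hmox1 (2.15) and more Siah2 (1.06). In normal mice Tigar was lower in HSC (-1.21 ± 0.14, adjusted p = 0.0369) and Meis1 higher (1.35 ± 0.16, adjusted p = 0.0406). Of the lists for pyruvate into mitochondria and for glycogen and gluconeogenesis, 0 genes passed in either kind of mouse.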

How the data were processed

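The authors deposited 1 table of log2 intensities for 45101 probe sets on 8 arrays, and RMA is named in the submitters' processing notes. Further settings: not given in the sources used here. On RNA amplification, the design text names Nugen Ovation Pico and the labels' protocol a standard Affymetrix method, so it is not settled. Values have a floor at 3.32, the log2 of 10, where 14.9% to 15.8% of probe sets per array and 0 members lay. Array medians lay between 5.74 and 5.86.

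Cell type and disease state labels gave the groups. The titles of KSL arrays of leukemic mice carry both wordings, and the descriptions speak of embryos; neither was used. Probe sets with 1 symbol (34945) were named by the platform annotation. The fit used limma 3.58.1 under R 4.3.3 (lmFit, eBayes, 1 mean per group, 4 residual and 0.67 prior degrees of freedom) and tested on simulated data. The 2 arrays per group limit the precision. Members and lists were chosen with earlier results of these data known. Every member found is named, and of each other list up to 3 passing genes per comparison or the 1 with the smallest p. Promoters came from RefSeq (GRCm38.p6). Replicate numbers were checked for pairing: deviations of same-numbered arrays correlated between -0.04 and 0.09 over 6 pairs of groups, and the main fit used no block. Correlations this weak over all genes do not exclude a shared mouse or sort.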

Additional observations from a re-analysis of the deposited data

How the results depend on the processing

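The 5 counts of passing members and the 5 medians were recomputed under 19 alternatives, of which leaving out both arrays of male pattern was chosen after seeing the data. The median of HSC against KSL in normal mice, 0.02, changed sign under 4 of them, among them a common median (-0.010) and leaving out the lowest 40% of genes (-0.036); the other medians kept their sign. In HSC of leukemic against normal mice, 1 member passed with the second brightest probe set (Egln3; 0.0440% of all genes), and in KSL 2 passed with array weights (0.687%). For HSC against KSL in normal mice the count of 1 became 3 with arrays shifted to a common median (2.85% of all genes), 4 without genes at the floor (3.52%), 3 without the lowest 40% of genes (4.70%), and 0 with the second brightest probe set (1.13%), with only the 4 arrays compared (0.00%), with a term for male pattern (0.923%) or without both such arrays (0.0220%); leaving out 1 array gave 0 to 1. In leukemic mice the count of 7 became 13 with the mean of all probe sets (6.78% of all genes, against 5.85% with 1 probe set), 1 with only the 4 arrays compared (0.517%) and 1 without both arrays of male pattern (0.517%), and 0 to 10 when 1 array was left out (0.00% to 7.23%). The median of members became -0.089 (normal mice) and -0.45 (leukemic mice) with the second brightest probe set, and 0.13 in normal mice without the arrays of male pattern. Leaving out 1 array gave -0.050 to 0.16 in normal mice, -0.41 to -0.17 in leukemic mice and -0.38 to -0.23 for the interaction. Whether same-numbered arrays share a mouse or a sort is not known. Array 1 of both normal groups had the male pattern and a high erythroid sum (12.6 in HSC and 11.6 in KSL). With the replicate block 0 members passed in normal mice (0.104% of all genes) and 6 in leukemic mice (2.20%). Of 395 values of single members under an alternative, 340 kept their side of the threshold, 52 lost it and 3 gained it. The causes were not tested. With 2 arrays per group, moderate differences in the noisier HSC arrays cannot be told from replicate spread.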
